A study of Homo sapiens with 6 samples.

Results

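The transcripts of 10 genes, textbook targets of serum response factor (SRF) and its cofactors of the MRTF or TCF families, were followed in HT-29. This established line of human colorectal cancer cells had undergone knockdown (KD) of the lncRNAs HOXA-AS3 or HOXB-AS3. The genes were found by their Entrez Gene identifiers. They are SRF itself (6722), VCL (7414), ZYX (7791), FLNA (2316), TPM1 (7168), MYL9 (10398), TAGLN2 (8407), FHL2 (2274), ACTN1 (87) and EGR1 (1958), and they make up 10 of the 27434 gene rows quantified in each library. All 10 passed the filter on low counts that left 13034 genes for testing. Cells were transfected with pooled siRNAs that target HOXA-AS3 (siHOXA-AS3) or HOXB-AS3 (siHOXB-AS3) or with a non-targeting control pool (siNT), and poly(A) RNA was sequenced after 48 hours, with 2 libraries per condition. The sample labels give 10 nM siRNA and an RNeasy extraction, whereas the methods of the study give a higher dose and TRIREAGENT. All 6 libraries come from 1 cell line that received a transfection reagent and an siRNA pool, and no untransfected cells were included. The labels number the replicates without saying whether they were separate cultures, so the p-values below measure the spread between these libraries, which may be technical.

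SRF is a MADS-box transcription factor that binds the CArG box, a DNA element made of CC, a run of A or T bases, and GG. It works with either of a pair of cofactor families. MRTF proteins are held in the cytoplasm by monomeric actin and enter the nucleus when actin polymerizes, where they drive genes of the actin cytoskeleton and of focal adhesions. TCF proteins of the ETS family (ELK1, ELK3 and ELK4) are phosphorylated by ERK and drive immediate-early genes such as EGR1 and FOS. In epithelial cells the cytoskeletal targets build stress fibres, the cortical actin belt and the contacts between cell and matrix.

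The CArG boxes of the group are shown because the CArG box is the element that SRF binds. Whether SRF binds the printed sites in these cells was not tested. Promoter sequences from 250 bases before to 50 bases after each annotated start were taken from RefSeq (GRCh38.p14) and searched on both strands for CC, 6 bases of A or T, and GG. Of the 10 genes, 9 had promoters in the table (18 in all), and a CArG box was found for 5 of these 9 genes, in 7 of the 18 promoters. Among all promoters of this length, 454 of 35116 held it (1.29%), and they belonged to 438 of 27305 genes. The genes were listed as SRF targets, so this share describes the list and is no separate finding. MYL9 had no entry. Below, the CArG box is in capitals with the flanking bases in lower case, each on the strand of its gene.
SRF, chr6:43171229-43171258, plus strand, starting 30 bases before the start site: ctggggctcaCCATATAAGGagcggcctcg
SRF, chr6:43171249-43171278, plus strand, starting 10 bases before: agcggcctcgCCATAAAAGGaaacattgta
EGR1, chr5:138465364-138465393, plus strand, starting 105 bases before: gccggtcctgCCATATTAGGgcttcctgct
EGR1, chr5:138465386-138465415, plus strand, starting 83 bases before: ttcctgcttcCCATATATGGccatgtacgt
FLNA, chrX:154374709-154374738, minus strand, starting 94 bases before: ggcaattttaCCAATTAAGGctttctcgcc
FHL2, chr2:105399091-105399120, minus strand, starting 59 bases before: gcgtgcatctCCTTATATGGtcaaatgaca
ACTN1, chr14:68977718-68977747, minus strand, starting 171 bases before: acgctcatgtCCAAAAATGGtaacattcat
SRF and EGR1 each carry a pair of boxes close together. FHL2 has a further box at another of its start sites, shared by a pair of its promoters in the table. No match for VCL, ZYX, TPM1 or TAGLN2 says only that these letters are not in this window.

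The expected counts summed to between 15998518 and 26263938 per library. HOXA-AS3 was rare, counted 38 and 18 times in siNT, 12 and 12 times after its own KD and 30 and 22 times after HOXB-AS3 KD. HOXB-AS3 was counted 303 and 213 times in siNT, 263 and 208 times after HOXA-AS3 KD and 67 and 76 times after its own KD, so each target was lowest under its own siRNA. Neither difference from siNT passed in edgeR (adjusted p = 0.711 for HOXA-AS3 and 0.0678 for HOXB-AS3). The siHOXA-AS3 libraries stood apart from each other. Replicate 1 minus replicate 2, in log2 CPM over the genes tested, had an SD of 0.42 in siNT, 0.37 in siHOXB-AS3 and 0.73 in siHOXA-AS3. Across genes this difference had a Pearson r with the GC content of the transcript of 0.763 in siHOXA-AS3, -0.42 in siNT and 0.15 in siHOXB-AS3. The genes share the pair of libraries of a condition and are not replicates. Because the siHOXA-AS3 replicates lay farthest apart, most values below that turn on a siHOXA-AS3 library are also given with it left out. Of 13 mesenchymal and smooth muscle markers, 5 had 0 counts in every library and 12 stayed under 1 FPKM throughout, MYOCD and VIM among them, and the list summed to between 1.15 and 3.19 FPKM per library. The 11 colon epithelial markers summed to between 3979 and 5938 FPKM, with the homeobox factor CDX2 under 1 FPKM in every library. After HOXB-AS3 KD 9 of these 11 markers had log2 fold changes below 0 (median -0.46), where 49.3% of all genes were above 0. In CPM 8 lay below siNT without overlap and 2 above it, KRT8 and KRT18, where 30.9% of all genes lay on each side. Against siNT edgeR called 1 marker lower after HOXB-AS3 KD, CEACAM5, where it called 0.0614% of all genes. It called 3 lower in siHOXB-AS3 than in siHOXA-AS3, namely CEACAM5, EPCAM and CDH17, beside 1.57% of all genes. With only the KD libraries in the fit these did not pass (edgeR adjusted p = 0.0804, 0.183 and 0.142 in that order). Their adjusted p-values were 2.0e-10, 0.00406 and 3.03e-05 in DESeq2, and 0.0246, 0.0527 and 0.0522 in limma on log2(FPKM + 0.1). The part of these markers in the results below was not tested. In such bulk RNA, fewer cells of a type and less RNA per cell cannot be told apart.

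Levels of different genes were compared in FPKM, which corrects the count for transcript length and library size. In siNT the group ran from under 1 FPKM to 489 FPKM. TAGLN2, a small actin-binding protein of the calponin family, stood highest at 489 ± 45.8 FPKM (SD, n = 2). FHL2 at 121 ± 4.24 FPKM, TPM1 at 118 ± 0.969 FPKM and ZYX at 108 ± 5.81 FPKM followed (SD, n = 2 each), and the ranges of FHL2 and TPM1 overlapped. FLNA stood at 48.9 ± 9.14 FPKM and ACTN1 at 27.2 ± 2.33 FPKM (SD, n = 2 each). EGR1 at 17.02 ± 3.20 FPKM and VCL at 16.03 ± 0.0283 FPKM overlapped in turn (SD, n = 2 each). SRF itself was at 9.61 ± 0.141 FPKM (SD, n = 2), and MYL9 came last at 0.575 ± 0.00707 FPKM (SD, n = 2). The other neighbours in this order did not overlap. By their means TAGLN2 and FHL2 stayed at the top and SRF and MYL9 at the bottom in all 3 conditions. In siHOXA-AS3 the ranges of FHL2 and ZYX, ZYX and TPM1, ACTN1 and EGR1, and VCL and SRF overlapped, and in siHOXB-AS3 those of VCL and EGR1.

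**Figure D1:**
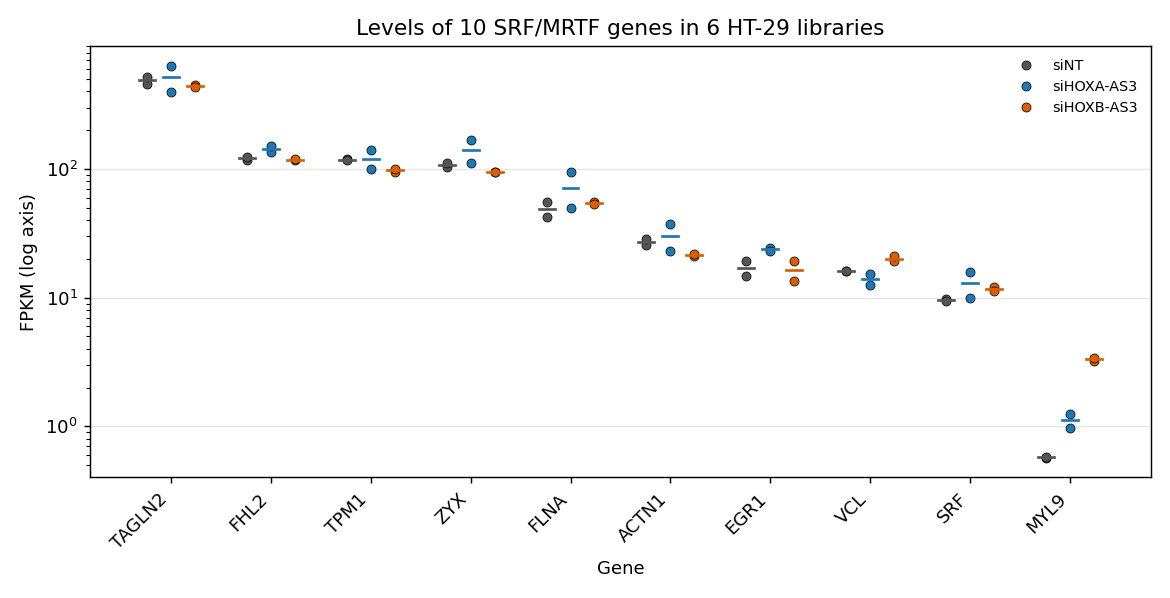
FPKM on a log axis of the 10 SRF/MRTF genes in the 6 libraries, with 1 point per library and a bar at the mean of each condition, ordered by the siNT mean. MYL9 lies lowest and is the gene whose siHOXB-AS3 points (3.23 and 3.43 FPKM) sit farthest above its siNT points (0.57 and 0.58 FPKM), while the siHOXA-AS3 points of SRF, ZYX, FLNA, TAGLN2 and ACTN1 are spread widely.

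Each KD was compared with siNT and the KDs with each other, to ask which of the 10 genes differed by more than the libraries of a condition do. The test was edgeR's quasi-likelihood test on all 6 libraries, with Benjamini-Hochberg adjustment over the 13034 genes and a threshold of 0.05. After HOXA-AS3 KD 0 of the 10 genes passed, where edgeR called 0% of all genes. At an unadjusted p below 0.05 there was 1, MYL9, beside 6.16% of all genes, and DESeq2 called 0 of the 10 beside 0.415% of all genes. After HOXB-AS3 KD 0 of the 10 passed in edgeR, where 0.0614% of all genes did. There 1 had an unadjusted p below 0.05 (12.2% of all genes), and DESeq2 called 1, beside 2.89%, again MYL9 in both cases. Between the KDs edgeR called 1 of the 10, MYL9, where it called 1.57% of all genes, 0.629% as higher in siHOXB-AS3. There 3 (VCL, ZYX and MYL9) had an unadjusted p below 0.05 beside 18.4% of all genes, and DESeq2 called MYL9 alone beside 6.45%. With only the 2 conditions compared in the fit, edgeR called 0, 3 and 0 of the 10 after HOXA-AS3 KD, after HOXB-AS3 KD and between the KDs, beside 0%, 23.0% and 0.0307% of all genes.

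Overlap was judged on CPM scaled by TMM. After HOXA-AS3 KD 9 of the 10 log2 fold changes were above 0, as were 51.3% of all genes, with a median of 0.30 beside 0.01 for all genes tested. In 5 genes the siHOXA-AS3 libraries did not overlap the siNT libraries, 4 higher (SRF, MYL9, FHL2 and EGR1) and 1 lower (VCL), where 28.6% of all genes did not overlap, 12.5% higher and 16.1% lower. The median rested on the choice of library, at 0.05 without siHOXA-AS3 replicate 1 and 0.50 without replicate 2. After HOXB-AS3 KD 4 of the 10 values were above 0, beside 49.3% of all genes, with a median of -0.01, beside -0.01 for all genes tested. There 7 genes did not overlap, 4 higher (SRF, VCL, FLNA and MYL9) and 3 lower (ZYX, TPM1 and ACTN1), and 61.8% of all genes did not overlap, 30.9% in each direction. Between the KDs 2 of the 10 values were above 0 (48.9% of all genes) and the median was -0.25 beside -0.01, with 2 genes higher in siHOXB-AS3 (VCL and MYL9) and 4 lower (ZYX, FHL2, ACTN1 and EGR1) without overlap, where 45.3% of all genes did not overlap, 22.8% higher and 22.5% lower. With siHOXA-AS3 replicate 1 left out this median was 0.04, and with replicate 2 left out it was -0.45, so its sign rested on 1 library. The median after HOXB-AS3 KD lay between -0.13 without siNT replicate 1 and 0.12 without siNT replicate 2. The comparisons share libraries, so their counts are not independent of each other.

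**Figure D2:**
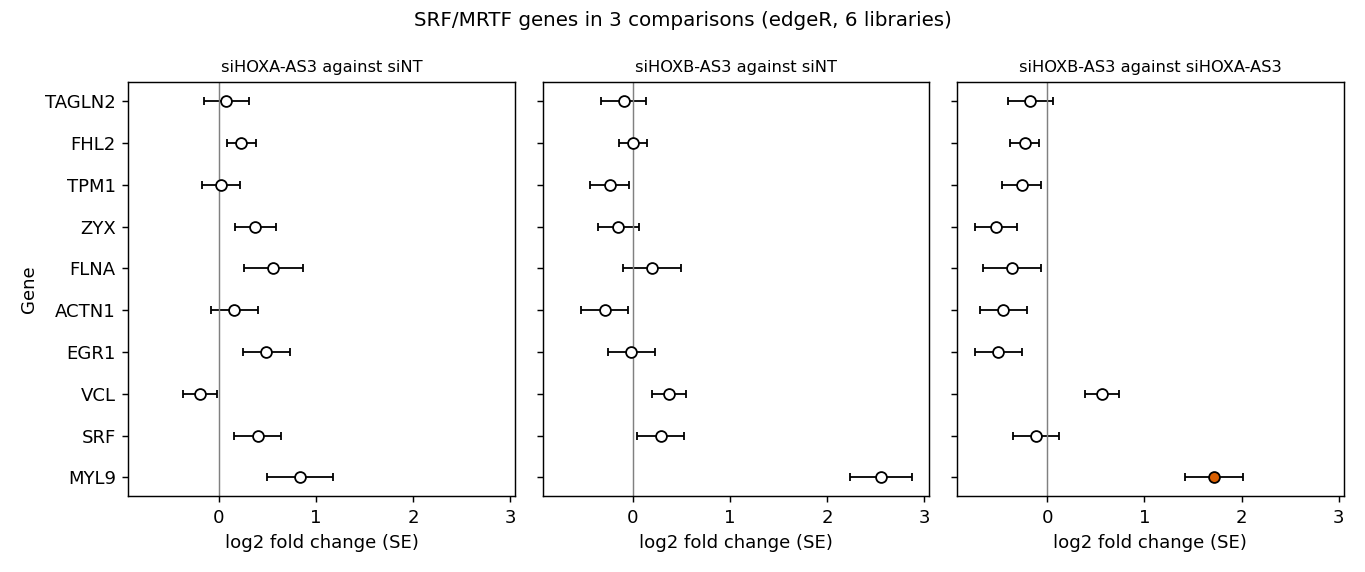
Log2 fold changes of the 10 SRF/MRTF genes in the 3 comparisons from edgeR's fit of all 6 libraries, with bars of 1 standard error. The filled point is the 1 call at an adjusted p under 0.05, MYL9 in siHOXB-AS3 against siHOXA-AS3 (log2 fold change 1.72), and the open points did not pass.

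MYL9, the regulatory light chain of smooth muscle and non-muscle myosin II, whose phosphorylation switches on contraction, differed most. Its expected counts were low, at 16 and 10 in siNT, 24 and 20 after HOXA-AS3 KD and 86 and 78 after HOXB-AS3 KD. On the FPKM scale these were 0.57 and 0.58, 0.98 and 1.26, and 3.23 and 3.43, so the conditions did not overlap and stood in the order siNT, siHOXA-AS3, siHOXB-AS3. Between the KDs MYL9 was higher in siHOXB-AS3 by a log2 fold change of 1.72 (SE 0.299, 3.29-fold, edgeR adjusted p = 0.0474). Against siNT the siHOXB-AS3 libraries were higher by 2.55 on the log2 scale (SE 0.318, 5.86-fold), with an adjusted p of 0.0678 in edgeR, on the far side of the threshold, and of 0.000622 in DESeq2. When siHOXA-AS3 was left out of the fit the edgeR adjusted p was 9.89e-06. The value against siNT stayed between 2.52 and 2.57 with any library left out. Its edgeR adjusted p was 1.39e-05 and 1.46e-05 without siHOXA-AS3 replicate 1 or 2, and between 0.541 and 1 without any of the other libraries. The call between the KDs held without either siHOXA-AS3 library (edgeR adjusted p = 0.00414 and 0.00146). It was lost without siNT replicate 1 (0.160), siNT replicate 2 (0.161), siHOXB-AS3 replicate 1 (0.423) or siHOXB-AS3 replicate 2 (0.543), with only the KD libraries in the fit (0.158), with a trend on gene length removed (0.0511), and with limma on log2(FPKM + 0.1) (adjusted p = 0.0527). After HOXA-AS3 KD the log2 fold change was 0.83 (SE 0.340, edgeR adjusted p = 0.768).

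MYL9 was set beside its closest relatives, MYL12A and MYL12B, the latter chosen after its values were seen, which encode the light chains of non-muscle myosin and were far more abundant. MYL12A stood at 668 and 601 FPKM in siNT, 702 and 1161 FPKM in siHOXA-AS3 and 495 and 459 FPKM in siHOXB-AS3. Against siNT its log2 fold change was -0.34 after HOXB-AS3 KD (SE 0.233, edgeR adjusted p = 0.621), so there its values lay on the other side of siNT from those of MYL9. In siHOXA-AS3 both libraries of MYL12A lay above siNT, on the same side as MYL9. MYL12B was at 2826 and 2990 FPKM in siNT, 3042 and 3305 FPKM in siHOXA-AS3 and 3031 and 2904 FPKM in siHOXB-AS3. After HOXB-AS3 KD its log2 fold change was 0.08 (SE 0.133, edgeR adjusted p = 0.878). The expected count of MYL9 was whole within 0.005 in 6 of 6 libraries, whereas those of MYL12A and MYL12B were whole in 0 of 6, as happens where the estimation divides fragments between genes. Like MYL9, the smooth muscle markers were low. TAGLN, the smooth muscle form of transgelin, was at 1.41 and 0.96 FPKM in siNT, 1.53 and 0.4 FPKM in siHOXA-AS3 and 1.76 and 2.28 FPKM in siHOXB-AS3, and its difference between siHOXB-AS3 and siNT had a log2 fold change of 0.77 (SE 0.585, edgeR adjusted p = 0.667). ACTA2 was under 1 FPKM in every library and MYOCD, the SRF cofactor of muscle, had 0 counts in all 6.

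Of the transcription factors, SRF had 9.71 and 9.51 FPKM in siNT, 15.9 and 9.99 FPKM in siHOXA-AS3 and 12.1 and 11.3 FPKM in siHOXB-AS3. All 4 KD libraries lay above both siNT libraries, and the siHOXA-AS3 replicates were the widest apart. Its log2 fold change was 0.40 after HOXA-AS3 KD (SE 0.240) and 0.29 after HOXB-AS3 KD (SE 0.240), with edgeR adjusted p-values of 0.922 and 0.703. Without siHOXA-AS3 replicate 1 the first value was 0.05, and without replicate 2 it was 0.69. EGR1, a zinc finger factor of the immediate-early response, had 14.8 and 19.3 FPKM in siNT, 24.4 and 23.1 FPKM in siHOXA-AS3 and 13.4 and 19.2 FPKM in siHOXB-AS3. Both siHOXA-AS3 libraries were above the other 4, and the siNT and siHOXB-AS3 libraries covered the same range. The log2 fold changes of EGR1 were 0.49 after HOXA-AS3 KD (SE 0.242, edgeR adjusted p = 0.869) and -0.02 after HOXB-AS3 KD (SE 0.242, edgeR adjusted p = 0.990). Between the KDs EGR1 differed by -0.51 (SE 0.242, edgeR adjusted p = 0.326), or by -0.47 and -0.55 with siHOXA-AS3 replicate 1 or 2 left out. The siHOXB-AS3 libraries mattered more, at -0.27 without replicate 1 and -0.80 without replicate 2.

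At focal adhesions, VCL encodes vinculin, which links talin to actin filaments under tension. Its levels were 16.01 and 16.05 FPKM in siNT, 12.6 and 15.3 FPKM in siHOXA-AS3 and 19.2 and 21.0 FPKM in siHOXB-AS3. The conditions did not overlap, with siHOXA-AS3 below siNT and siHOXB-AS3 above it. Of the 10 genes only VCL had its KD libraries on opposite sides of siNT, each without overlap. Its log2 fold changes were -0.19 after HOXA-AS3 KD (SE 0.176, edgeR adjusted p = 0.986), 0.37 after HOXB-AS3 KD (SE 0.176, edgeR adjusted p = 0.469) and 0.56 between the KDs (SE 0.176, edgeR adjusted p = 0.160). Between the KDs VCL differed by 0.43 with siHOXA-AS3 replicate 1 left out and by 0.70 with replicate 2 left out. It passed in edgeR in both of those fits (adjusted p = 0.0116 and 0.000198), in which 38.3% and 36.9% of all genes passed, and after removal of a GC trend from each library (adjusted p = 0.00716, 25.6% of all genes). When siHOXA-AS3 was left out of the fit, 3 of the 10 genes passed after HOXB-AS3 KD, where 23.0% of all genes did. They were VCL, ACTN1 and MYL9 (edgeR adjusted p = 0.0103 for VCL).

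ZYX and FHL2 encode LIM domain proteins that gather at stretched actin filaments and adhesions. ZYX had 104 and 112 FPKM in siNT, 168 and 111 FPKM in siHOXA-AS3 and 94.2 and 94.1 FPKM in siHOXB-AS3, so only siHOXA-AS3 replicate 1 stood above the siNT range. Its log2 fold changes were 0.38 after HOXA-AS3 KD (SE 0.213, edgeR adjusted p = 0.910) and -0.15 after HOXB-AS3 KD (SE 0.212, edgeR adjusted p = 0.846). Between the KDs ZYX differed by -0.53 (SE 0.213, edgeR adjusted p = 0.252), or by -0.20 without siHOXA-AS3 replicate 1 and -0.80 without replicate 2. FHL2 had 118 and 124 FPKM in siNT, 137 and 150 FPKM in siHOXA-AS3 and 116 and 120 FPKM in siHOXB-AS3. Both siHOXA-AS3 libraries of FHL2 were above the other 4, by a log2 fold change of 0.23 against siNT (SE 0.148, edgeR adjusted p = 0.934), while the value after HOXB-AS3 KD was -0.00029 (SE 0.148). FHL2 depended little on the siHOXA-AS3 library left out, at 0.29 without replicate 1 and 0.18 without replicate 2.

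The remaining genes encode proteins that bind the actin filament itself. FLNA, filamin A, which crosslinks filaments into networks, had 42.4 and 55.4 FPKM in siNT, 94.0 and 49.4 FPKM in siHOXA-AS3 and 55.0 and 53.7 FPKM in siHOXB-AS3. The siHOXA-AS3 replicates lay on either side of both siHOXB-AS3 values, and the siHOXB-AS3 and siNT ranges overlapped in FPKM, while in CPM the lower siHOXB-AS3 library (459.1) was just above the higher siNT library (458.8). The log2 fold change of FLNA after HOXA-AS3 KD was 0.56 (SE 0.299, edgeR adjusted p = 0.881), and it was 0.03 without replicate 1 and 0.96 without replicate 2. FLNA was at 0.20 after HOXB-AS3 KD (SE 0.299, edgeR adjusted p = 0.854), a value that was 0.01 without siNT replicate 1 and 0.41 without siNT replicate 2. ACTN1, the crosslinker alpha-actinin 1, had 25.5 and 28.8 FPKM in siNT, 37.1 and 23.2 FPKM in siHOXA-AS3 and 21.2 and 21.8 FPKM in siHOXB-AS3, with both siHOXB-AS3 libraries the lowest of the 6. Its log2 fold change was -0.29 after HOXB-AS3 KD (SE 0.240, edgeR adjusted p = 0.699, or 0.0489 when siHOXA-AS3 was left out). After HOXA-AS3 KD ACTN1 was at 0.16 (SE 0.240, edgeR adjusted p = 0.997), but at -0.21 without replicate 1 and 0.46 without replicate 2. The expected count of ACTN1 was whole in 0 of 6 libraries, so part of its fragments was divided with other genes by estimation.

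TPM1, a tropomyosin that lies along filaments and guards them against severing, had 119 and 118 FPKM in siNT, 99.7 and 140 FPKM in siHOXA-AS3 and 94.4 and 100 FPKM in siHOXB-AS3. The siHOXA-AS3 libraries fell on either side of siNT with replicate 2 the higher, the reverse of FLNA and ACTN1, and both siHOXB-AS3 libraries were below siNT. Its log2 fold changes were 0.02 after HOXA-AS3 KD (SE 0.199, edgeR adjusted p = 0.999) and -0.24 after HOXB-AS3 KD (SE 0.199, edgeR adjusted p = 0.699). TAGLN2 had 456 and 521 FPKM in siNT, 636 and 393 FPKM in siHOXA-AS3 and 450 and 434 FPKM in siHOXB-AS3. Its log2 fold change after HOXA-AS3 KD was 0.08 (SE 0.234, edgeR adjusted p = 0.997), at -0.31 without replicate 1 and 0.39 without replicate 2, and both of those values passed in edgeR with opposite signs (adjusted p = 0.0455 and 0.0167). In those fits 30.6% and 18.1% of all genes passed. After HOXB-AS3 KD TAGLN2 was at -0.10 (SE 0.234, edgeR adjusted p = 0.922). Exons of TPM1 share 23.5% of their bases with TPM1-AS on the opposite strand in GENCODE v29 (GRCh38), and those of VCL share 16.6% with AP3M1. Whether counting used the strand is not given in the sources used here, so fragments from these stretches may belong to either gene.

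The distance between the siHOXA-AS3 replicates was then set beside GC content gene by gene. There 5 of the 10 genes were at least 0.5 higher on the log2 CPM scale in replicate 1 than in replicate 2, namely FLNA (0.92), TAGLN2 (0.69), ACTN1 (0.67), SRF (0.63) and ZYX (0.60), and 1 was at least 0.5 lower, TPM1 (-0.52). No gene of the group was that far apart in siNT, and 1 was in siHOXB-AS3, EGR1 (-0.53). Those 5 genes have GC contents between 57.0% and 63.2%, and TPM1 and VCL, at 50.2% and 48.9%, were higher in replicate 2. MYL9, with a GC content of 60.9%, differed by -0.19. Of the 10 genes 9 lie above the median GC content of the genes tested (49.8%). With a GC trend removed from each library, FLNA passed in edgeR after HOXA-AS3 KD (log2 fold change 0.54, adjusted p = 0.0317), 1 of 10 where 4.11% of all genes passed. MYL9 passed after HOXB-AS3 KD (2.61, adjusted p = 0.00274), 1 of 10 where 13.4% of all genes passed. Between the KDs VCL, ZYX, MYL9 and ACTN1 passed, 4 of 10 where 25.6% of all genes passed. With both the GC trend removed and only the 2 conditions compared in the fit, 0, 6 and 3 of the 10 passed after HOXA-AS3 KD, after HOXB-AS3 KD and between the KDs, beside 0.537%, 33.9% and 16.8% of all genes.

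**Figure D3:**
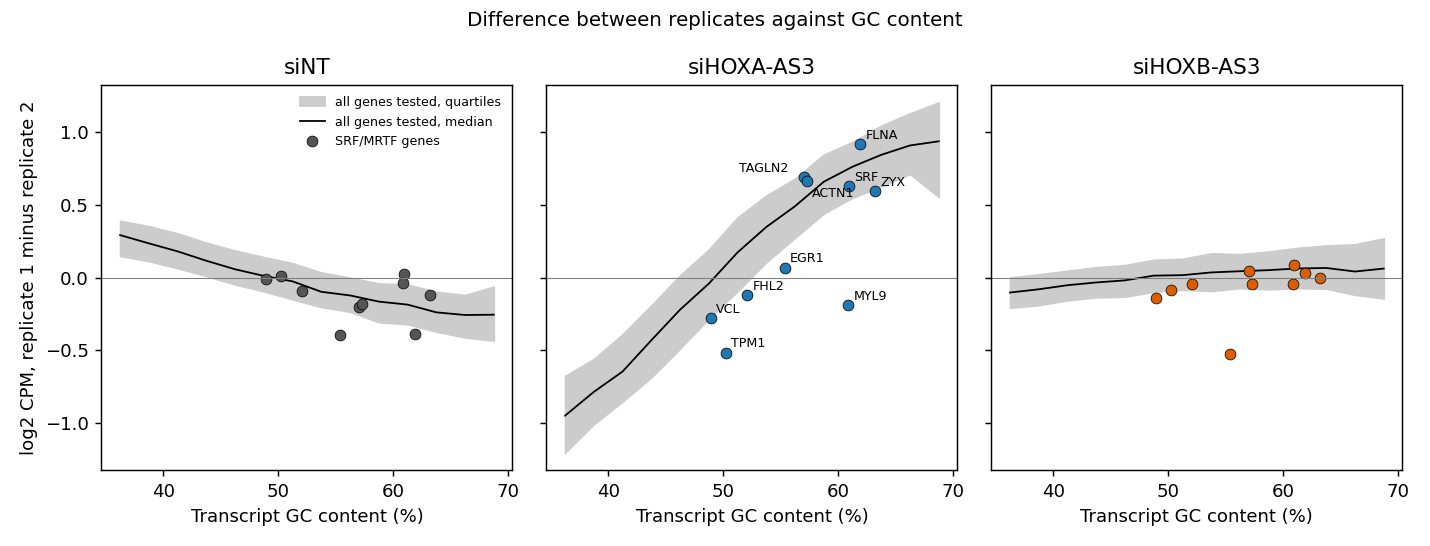
Log2 CPM of replicate 1 minus replicate 2 against transcript GC content for the 10 SRF/MRTF genes (points) in each condition, with the median and quartiles of all genes tested in bins of GC content. In siHOXA-AS3 the median climbs with GC content and FLNA (0.92), TAGLN2 (0.69), ACTN1 (0.67), SRF (0.63) and ZYX (0.60) follow it, with MYL9 (-0.19) below.

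The other components of the pathway were read from lists of cofactors, further targets and gene relatives, with the shares of all genes called given above as their background. The lists overlap in part, so their counts and medians are not separate results. For instance, ACTN4, TPM2, TPM3, TPM4, TAGLN and LPP are listed both as relatives and as targets of the actin-MRTF arm. VIL1 is listed both as such a target and as a colon epithelial marker. Of the 7 SRF cofactors listed 6 were tested, and 0 passed in edgeR in any of the 3 comparisons, with 0 at an unadjusted p below 0.05 and 0 called by DESeq2. MRTFA, the actin-binding coactivator, had 3.72 and 3.97 FPKM in siNT, 6.47 and 3.20 FPKM in siHOXA-AS3 and 5.73 and 4.96 FPKM in siHOXB-AS3. MRTFB ran the other way in siHOXB-AS3, with 14.3 and 13.8 FPKM in siNT, 13.4 and 12.3 FPKM in siHOXA-AS3 and 11.5 and 10.45 FPKM in siHOXB-AS3. After HOXB-AS3 KD their log2 fold changes were 0.53 (SE 0.328) and -0.31 (SE 0.157). Their edgeR adjusted p-values were 0.588 and 0.507 with all 6 libraries. When siHOXA-AS3 was left out they were 0.00857 and 0.0280, in a fit where 23.0% of all genes passed. The TCF factor ELK3 was at -0.53 after HOXB-AS3 KD (SE 0.290, edgeR adjusted p = 0.541), and its siNT libraries were themselves at 2.42 and 1.45 FPKM. With a GC trend removed MRTFA passed after HOXB-AS3 KD (0.60, edgeR adjusted p = 0.0244), where 13.4% of all genes passed.

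Of 32 further targets of the actin-MRTF arm 24 were tested. After HOXA-AS3 KD 0 passed in edgeR, with 4 at an unadjusted p below 0.05 (6.16% of all genes) and 1 called by DESeq2 (0.415% of all genes). After HOXB-AS3 KD 1 rose, CCN2, beside 0.0614% of all genes, and between the KDs 3 were higher in siHOXB-AS3 and 0 lower, beside 1.57% of all genes. CCN1 and CCN2 encode matricellular proteins, and ANKRD1 encodes an ankyrin repeat protein. All of these are also well known targets of YAP and TEAD, so the list's name does not single out MRTF for them. CCN2 had 8.88 and 10.1 FPKM in siNT, 9.48 and 8.09 FPKM in siHOXA-AS3 and 38.3 and 52.8 FPKM in siHOXB-AS3, and CCN1 had 7.21 and 9.25 FPKM, 9.83 and 6.36 FPKM, and 27.9 and 34.5 FPKM in the same order. For both genes siNT and siHOXA-AS3 overlapped and siHOXB-AS3 lay above. Between the KDs their log2 fold changes were 2.41 (SE 0.236, edgeR adjusted p = 0.0173) and 1.98 (SE 0.279, edgeR adjusted p = 0.0372). Against siNT they were 2.31 (edgeR adjusted p = 0.0492) and 1.97 (edgeR adjusted p = 0.0790). DESeq2 gave adjusted p-values of 1.15e-16 for CCN2 and 3.05e-09 for CCN1 between the KDs, and 1.15e-14 for CCN2 against siNT. With only the KD libraries in the fit, edgeR's adjusted p was 0.0542 for CCN2 and 0.118 for CCN1, and neither passed. With siHOXA-AS3 left out, CCN2 passed against siNT (edgeR adjusted p = 1.12e-09). The call of CCN2 against siNT was lost without siNT replicate 1 (0.585) or 2 (0.525) and without siHOXB-AS3 replicate 1 (0.541) or 2 (1), where its log2 fold change lay between 2.05 and 2.53. ANKRD1 had 1 and 1 counts in siNT, 0 and 0 in siHOXA-AS3 and 33 and 32 in siHOXB-AS3. It was at least 19.3-fold higher in siHOXB-AS3 than a floor of 3 counts over the siHOXA-AS3 libraries (edgeR adjusted p = 0.0295), and 30.5-fold higher than in siNT with an exact binomial interval of 8.10 to 257 that covers counting error only. With only the KD libraries in the fit ANKRD1 did not pass (edgeR adjusted p = 0.100), and DESeq2 gave it no adjusted p. The calls of CCN1, CCN2 and ANKRD1 between the KDs held without either siHOXA-AS3 library and were lost without any siNT or siHOXB-AS3 library. Their edgeR adjusted p-values then ran from 0.119 to 0.5003 for CCN1, from 0.0550 to 0.305 for CCN2 and from 0.102 to 0.468 for ANKRD1.

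After HOXB-AS3 KD 9 of the 24 values were above 0 and 15 below. The median log2 fold change of the 24 genes was 0.06 after HOXA-AS3 KD, -0.12 after HOXB-AS3 KD and -0.33 between the KDs, and it was the same with ANKRD1 at its bound. Without siHOXA-AS3 replicate 1 the value after HOXA-AS3 KD was -0.19 and that between the KDs -0.07, without siHOXA-AS3 replicate 2 the former was 0.27, and without siNT replicate 2 the value after HOXB-AS3 KD was -0.05. In the last 2 comparisons the mean had the opposite sign, 0.23 and 0.02. WDR1, which helps cofilin to take filaments apart, had 131 and 135 FPKM in siNT, 140 and 115 FPKM in siHOXA-AS3 and 76.3 and 77.4 FPKM in siHOXB-AS3, the lowest of the 6 libraries. Its log2 fold change after HOXB-AS3 KD was -0.75 (SE 0.155), with an adjusted p of 0.128 in edgeR and 0.0314 in DESeq2. FBLIM1, which links filamin to adhesions, was at -0.62 (SE 0.324, edgeR adjusted p = 0.522). PDLIM7, a PDZ and LIM domain protein of stress fibres, had 5.79 and 7.72 FPKM in siNT, 22.6 and 12.3 FPKM in siHOXA-AS3 and 5.06 and 4.37 FPKM in siHOXB-AS3. Between the KDs PDLIM7 differed by -1.84 (SE 0.348), with an adjusted p of 0.0588 in edgeR and 8.29e-06 in DESeq2, and it was the gene DESeq2 called in this list after HOXA-AS3 KD (log2 fold change 1.34 and SE 0.342 in edgeR, adjusted p = 0.0225 in DESeq2). ACTG1, cytoplasmic gamma actin, whose transcript is close in sequence to other actins, was at 0.61 after HOXA-AS3 KD (SE 0.254, edgeR adjusted p = 0.800), and between 0.16 and 0.96 with any library left out. Gelsolin (GSN), which severs and caps filaments, was at -1.17 between the KDs (SE 0.354, edgeR adjusted p = 0.152). It had 13.2 and 16.7 FPKM in siNT, 30.7 and 15.1 FPKM in siHOXA-AS3 and 11.3 and 8.52 FPKM in siHOXB-AS3. Only siHOXA-AS3 replicate 1 of GSN stood above the siNT range.

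Of 15 further immediate-early genes of the TCF arm 13 were tested, and 0 passed in edgeR after either KD. At an unadjusted p below 0.05 there were 2 after HOXA-AS3 KD and 1 after HOXB-AS3 KD, and DESeq2 called 0 and 1. The medians were 0.36 after HOXA-AS3 KD, 0.12 after HOXB-AS3 KD and -0.36 between the KDs. With siHOXA-AS3 replicate 1 or 2 left out the first was 0.04 or 0.63 and the last -0.06 or -0.66, and the value after HOXB-AS3 KD was -0.07 without siNT replicate 1. Between the KDs 1 was lower in siHOXB-AS3, NR4A2, an orphan nuclear receptor. It had 0.94 and 0.86 FPKM in siNT, 1.94 and 1.77 FPKM in siHOXA-AS3 and 0.63 and 0.59 FPKM in siHOXB-AS3, so it stood in the order opposite to that of VCL. The difference was -1.57 (SE 0.250, edgeR adjusted p = 0.0405), and it lay between -1.64 and -1.50 with any library left out. With only the KD libraries in the fit NR4A2 did not pass (edgeR adjusted p = 0.142). Its adjusted p was 0.0527 in limma on log2(FPKM + 0.1) and 0.0021 in DESeq2. The call held without either siHOXA-AS3 library and was lost without siNT replicate 1 (0.145) or 2 (0.148) and without siHOXB-AS3 replicate 1 (0.426) or 2 (0.543). ATF3, a stress-induced repressor, had 26.3 and 27.8 FPKM in siNT, 29.3 and 29.1 FPKM in siHOXA-AS3 and 41.6 and 56.5 FPKM in siHOXB-AS3. Its log2 fold change after HOXB-AS3 KD was 0.90 (SE 0.202), with an adjusted p of 0.153 in edgeR and 0.0141 in DESeq2. DUSP1, a phosphatase of MAP kinases, was at 0.59 after HOXB-AS3 KD (SE 0.251, edgeR adjusted p = 0.418), and JUNB, an AP-1 subunit, at 0.86 after HOXA-AS3 KD (SE 0.339, edgeR adjusted p = 0.760). JUNB was at 36.2 FPKM in siHOXA-AS3 replicate 1 and at 17.8 FPKM in replicate 2, beside 13.4 and 16.6 FPKM in siNT.

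**Figure D4:**
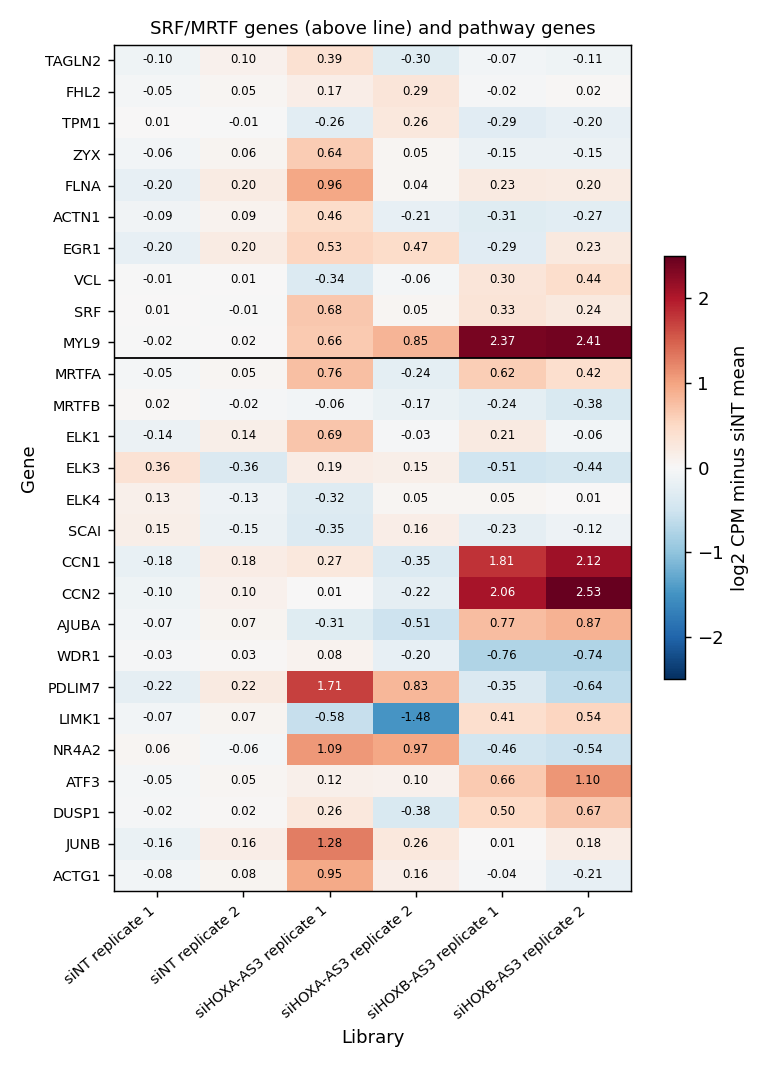
Log2 CPM minus the siNT mean in each of the 6 libraries for the 10 SRF/MRTF genes (above the line) and for SRF cofactors and other pathway genes (below it), with the value written in each cell. MYL9, CCN1 and CCN2 share high values in the siHOXB-AS3 libraries (1.81 to 2.53), whereas the other 9 SRF/MRTF genes lie between -0.31 and 0.44 there.

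Of 23 family relatives of the 10 genes 15 were tested, and 0 passed in edgeR after either KD. At an unadjusted p below 0.05 there were 2 after HOXA-AS3 KD and 1 after HOXB-AS3 KD, and DESeq2 called 0 and 1. Between the KDs 1 was higher in siHOXB-AS3, AJUBA, a LIM protein of the zyxin family that works at adherens junctions and in Hippo signalling. It had 23.6 and 24.8 FPKM in siNT, 19.1 and 17.02 FPKM in siHOXA-AS3 and 40.03 and 43.0 FPKM in siHOXB-AS3, the same order as VCL and without overlap. Its log2 fold change after HOXB-AS3 KD against siNT was 0.82 (SE 0.168), with an adjusted p of 0.123 in edgeR and 0.0148 in DESeq2. The log2 fold change between the KDs was 1.23 (SE 0.170, edgeR adjusted p = 0.0324). With only the KD libraries in the fit AJUBA did not pass between the KDs (edgeR adjusted p = 0.131), while DESeq2 gave an adjusted p of 1.09e-05. The call between the KDs held without either siHOXA-AS3 library and was lost without either siNT library (0.133 in both fits) and without siHOXB-AS3 replicate 1 (0.394) or 2 (0.503). ZYX itself did not share these values, as given above. Among the zyxin relatives, TRIP6 was at -0.63 after HOXA-AS3 KD (SE 0.320, edgeR adjusted p = 0.872) and LPP at -0.40 after HOXB-AS3 KD (SE 0.191, edgeR adjusted p = 0.482). ACTN4, the relative of ACTN1, lay above siNT without overlap after HOXB-AS3 KD (166 and 168 FPKM beside 122 and 137 FPKM), where ACTN1 lay below it. The tropomyosins gave values on both sides of 0. After HOXA-AS3 KD TPM3 was at -0.04 (SE 0.131, edgeR adjusted p = 0.997) and TPM4 at 0.36 (SE 0.151, edgeR adjusted p = 0.799). After HOXB-AS3 KD TPM2 was at -0.37 (SE 0.219, edgeR adjusted p = 0.573). There TPM3 lay above siNT without overlap, at 302 and 306 FPKM beside 258 and 257 FPKM. TPM4 lay below siNT, at 128 and 136 FPKM beside 155 and 142 FPKM.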

How the data were processed

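For each of the 6 libraries the authors deposited RSEM expected counts (estimated fragments per RefSeq gene, not normalized) and FPKM, which scales by transcript length and library size. The submitters' processing notes name the build hg19, and no aligner, RSEM version or strand use is given in the sources used here. Expected counts were rounded and tested in R 4.3.3 with edgeR 4.0.16 (filterByExpr minimum 10, TMM, robust quasi-likelihood fit of 3 conditions). Of the 27434 rows, 1472 matched no symbol (at most 2.16% of the counts) and stayed in the fit, and 627 join several genes. No pair of libraries was identical. Standard errors are the size of the log2 fold change divided by the square root of F. The 10 genes, the other lists and the tests were chosen with earlier results of these data known. Genes of the other lists were named mainly if called, or if among the highest or lowest 2 without overlap at a mean FPKM of at least 1. Some genes that met this rule, such as IER5 and LIMD1, are not described. The calling step was tested on simulated data with the same spread in every library and no GC trend. That test therefore does not cover the spread seen between the siHOXA-AS3 libraries. Alternatives used DESeq2 1.42.0, which is the study's tool, limma 3.58.1, other scalings and filters, trends on length and GC content (GENCODE v29, for 96.8% of genes tested), a replicate block and each library left out. A GC trend or a block with only the 2 conditions compared, and crossed replicate numbers, were added after seeing the data. A further list of genes is not reported here.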

Additional observations from a re-analysis of the deposited data

How the results depend on the processing

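Counts are given for HOXA-AS3 KD, HOXB-AS3 KD and the KDs against each other. The main fit called 0, 8 and 204 genes and 0, 0 and 1 of the 10 SRF/MRTF genes. DESeq2 called 51, 347 and 792 genes (0, 1 and 1 of the 10), no filter on low counts 24, 265 and 706 (0, 1 and 1), and a GC trend removed 536, 1744 and 3334 (1, 1 and 4). limma called 1, 12 and 93 genes on log2(FPKM + 0.1) (0, 1 and 0 of the 10) and 0, 12 and 76 on log2(FPKM + 1) (0, 1 and 1), and a length trend removed gave 1, 11 and 249 (0, 0 and 0). Only the 2 conditions compared gave 0, 2994 and 4 genes (0, 3 and 0), and 70, 4418 and 2189 with the GC trend also removed (0, 6 and 3). RLE factors, library totals and a mean FPKM of at least 1 left the calls among the 10 at 0, 0 and 1. The cause of these shifts was not tested.

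With each library left out in turn, where a lone library is assumed to vary like the other conditions, genes called ranged from 0 to 3994, 0 to 2998 and 0 to 4995. The calls among the 10 ranged from 0 to 5, 0 to 3 and 0 to 8. Without siHOXA-AS3 replicate 1 they were 1, 2 and 4, beside 30.6%, 23.0% and 38.3% of all genes, without replicate 2 they were 5, 3 and 8, beside 18.1%, 23.0% and 36.9%, and without any siNT or siHOXB-AS3 library 0, 0 and 0.

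The replicate numbers were not taken as pairs, since the replicate differences across genes were not positively correlated in every pair of conditions (r = -0.347 for siNT with siHOXA-AS3, -0.139 for siNT with siHOXB-AS3 and 0.150 for siHOXA-AS3 with siHOXB-AS3). A replicate block gave 0, 0 and 10 genes (0, 0 and 0 of the 10, with an edgeR adjusted p of 0.123 for MYL9 between the KDs and 0.138 for CCN2 after HOXB-AS3 KD), and with only the 2 conditions compared 5, 2444 and 384 (0, 2 and 1). Crossed numbers gave 79 and 4050 genes for the KDs against siNT (0 and 6 of the 10).

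Some signs turned. After HOXA-AS3 KD TPM1 was at -0.0015 and -0.0013 with limma at the smaller and larger pseudocount. After HOXB-AS3 KD FHL2 was at 0.0031 with DESeq2 and 0.0031 with RLE factors, 0.0089 with no filter, 0.00017 with the 2 conditions compared, 0.00031 with the replicate block, 0.018 with the GC trend removed, 0.019 with this and the 2 conditions, 0.00029 with the block and the 2 conditions, and 0.00065 with crossed numbers. EGR1 was at 0.037 with the GC trend removed and 0.039 with this and the 2 conditions. With a library left out, the signs turned after HOXA-AS3 KD for TPM1 (-0.25 to 0.26), TAGLN2 (-0.31 to 0.39) and ACTN1 (-0.21 to 0.46). After HOXB-AS3 KD they turned for TAGLN2 (-0.20 to 0.012), FHL2 (-0.052 to 0.047) and EGR1 (-0.31 to 0.22). Between the KDs they turned for SRF (-0.41 to 0.24), FLNA (-0.76 to 0.17), TPM1 (-0.50 to 0.0069) and TAGLN2 (-0.49 to 0.21). MYL9, at 10 to 86 counts per library, had the fewest counts of the 10 and so the widest counting error.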
